A study of Mus musculus with 167 samples.

Results

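The 10 genes described here encode the cohesin ring and the factors that load it on DNA, stay bound to it or stop it. They are Smc1a, Smc3 and Rad21 of the ring, the alternative subunits Stag1 and Stag2, the loader subunits Nipbl and Mau2, the regulators Pds5a and Pds5b, and Ctcf. They were chosen by name, and all 10 were found among the 24643 gene rows shared by the 44 RNA libraries. Every one passed the low-value filter of each comparison, which asked for 1 TPM (an abundance per transcript length, scaled to the same total in each library) in a number of libraries equal to the size of the smaller group.

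Cohesin is a ring that holds DNA and extrudes it into loops. Smc1a and Smc3 form the arms of the ring and Rad21 closes it, while a Stag protein binds to Rad21 and touches DNA. Nipbl with its partner Mau2 loads the ring and drives extrusion, Pds5 proteins bind the ring and act both in its release and in its protection, and extrusion often halts where CTCF is bound. Wapl releases the ring from DNA. In developing B cells, loop extrusion brings distant V genes of the immunoglobulin heavy chain locus (Igh) close to the site of V(D)J joining. Ring subunits and Pds5 proteins also hold sister chromatids together in dividing cells.

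All mice were C57BL/6. The libraries held 2 Pax5(-/-) progenitor libraries against 3 of Pax5(+/+) pro-B cells, and 5 pro-B libraries labelled Eed(F/F) Rag1-cre against 3 of Eed(F/+) Rag1-cre and 1 of Eed(F/F) without Cre. Pax5 commits progenitors to the B lineage, Eed is a core subunit of Polycomb repressive complex 2, and the Cre sits at Rag1, a gene active in lymphoid progenitors. Wapl(deltaP1,2/deltaP1,2) mice carry deletions, labelled P1 and P2, at Wapl itself. Their pro-B cells (2 libraries), pre-B cells (2) and pro-B cells expanded in culture for 3 days (3) were set against Wapl(+/+) cells of the same kind (2 each). Immature B cells carried 1 changed Igh allele, 890-inv (2 libraries), CBE (2) or CBE-inv (2), against Igh(+/+) cells prepared with the 890-inv set (2) or with the CBE sets (3). Further immature B cells had V8-8 (2) or V8-8-inv (2) opposite delta890, against Igh(+/delta890) cells (2), so that mutants and controls there share delta890. Cells other than the cultured ones were sorted directly from bone marrow. The libraries fall into series by their numbers, called blocks here, and each comparison was made within 1 block unless stated. Whether libraries of a group came from separate mice is not given, so p-values measure only the spread between these libraries.

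The targeted genes were checked first. Pax5 stood at 43.0 and 39.1 TPM in Pax5(-/-) libraries and at 342, 386 and 391 TPM in Pax5(+/+) libraries. Wapl stood at 30.9 and 31.7 TPM in deltaP1,2 pro-B cells and at 10.37 and 10.999 TPM in Wapl(+/+) pro-B cells. Eed RNA was not lower but higher in the libraries labelled Eed(F/F) Rag1-cre, at 222, 132, 123, 126 and 126 TPM. Controls stood at 58.4, 104, 94.3 and 122 TPM (log2 change 0.64 ± 0.184 (SE), adjusted p = 0.0443 in limma). The label therefore rests on the genotype and not on the RNA level. Igll1 led the pro-B marker list in every pro-B group and Cd74 the immature B list in every immature B group. The median gene of 43 libraries with a partner deviated by 0.0809 to 0.463 on the log2 scale from its group mates, with the largest value in Eed(F/+) Rag1-cre replicate 1. That library, and replicate 1 of the cultured mutant, also differed from their mates in the genes described here. Results that rest on them are given with and without them.

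All 10 genes were expressed in every library. Rad21, the subunit that closes the ring, had the highest TPM of the 10 in 34 libraries, and Ctcf had it in the other 10. Rad21 ranged from 119.6 to 445 TPM over the 44 libraries and Ctcf from 110.2 to 272 TPM. At the low end of the scale, Stag1 ranged from 19.0 to 63.6 TPM and Pds5b from 19.1 to 55.6 TPM. The ratio of the highest to the lowest group mean was smallest for Stag2, 2.03, and for Ctcf, 2.06. It was largest for Nipbl, 3.93, followed by Smc3 with 3.16 and Rad21 with 3.01.

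Wild-type cells were compared by stage first, from sorted pro-B cells, which rearrange Igh, through pre-B cells, which rearrange light chain genes, to immature B cells, which carry a complete receptor. Pre-B cells held less RNA of Smc3, Stag1, Pds5a and Pds5b than pro-B cells, and more of both loader genes. Smc3 stood at 74.9 and 82.9 TPM in Wapl(+/+) pre-B cells, against 100.1 and 112 TPM in Wapl(+/+) pro-B cells (log2 change -0.42 ± 0.093 (SE), adjusted p = 0.00542 in limma, adjusted over all genes). Both pre-B libraries lay below both pro-B libraries. Mau2 stood at 81.9 and 84.1 TPM in pre-B cells, against 60.3 and 61.2 TPM in pro-B cells (log2 change 0.44 ± 0.105 (SE), adjusted p = 0.00732), again without overlap. Nipbl stood at 76.3 and 85.4 TPM in pre-B cells and at 65.2 and 69.0 TPM in pro-B cells (log2 change 0.26 ± 0.093 (SE), adjusted p = 0.0416), a call lost without the filter (adjusted p = 0.0544) and when any of 3 libraries was left out.

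In that comparison 2 of the 10 genes rose, where 23.8% of all genes tested rose, and 4 fell, where 33.8% fell, so both shares are near those of all genes. The median log2 change of the 10 was -0.18, and of all 12465 genes -0.083. The falls of Stag1 (-0.47), Pds5a (-0.47) and Pds5b (-0.41) were of like size and were lost when pro-B replicate 2 or pre-B replicate 1 was left out. Rad21 averaged 354 ± 8.05 TPM in pre-B cells and 336 ± 8.63 TPM in pro-B cells (SD, n = 2 each), with a log2 change of 0.077 ± 0.115 (SE), adjusted p = 0.593. Smc1a, Stag2 and Ctcf did not pass the test either, with adjusted p between 0.297 and 0.660. Among 19 genes of replication and mitosis, 10 fell and none rose over the same step, with Tyms at 17.2 TPM in pre-B cells and 61.4 TPM in pro-B cells. In 8 genes of condensin, the related complex that compacts chromosomes for division, 6 fell. The part of cell division in the change of the cohesin genes was not tested. Of 6 erythroid markers, all 3 tested rose, with sums of 546 to 626 TPM in pre-B and 182 to 226 TPM in pro-B libraries and 2 at 0 in both. Of 7 myeloid markers 3 rose, with sums of 795 to 1296 TPM in pre-B and 675 to 1199.5 TPM in pro-B libraries and none at 0. Their part was not tested. In bulk libraries such as these, fewer cells of a type and less RNA per cell cannot be told apart.

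The same step in Wapl(deltaP1,2/deltaP1,2) cells gave 4 lower genes, where 32.5% of all genes fell. These were Smc3 (log2 change -0.29), Stag1 (-0.53), Pds5a (-0.50) and Pds5b (-0.58). Both loader genes lay without overlap above their level in mutant pro-B cells but did not pass, Nipbl with adjusted p = 0.0813 and Mau2 with adjusted p = 0.0615. With libraries scaled to a common median ratio both passed (log2 change 0.31 for Nipbl and 0.36 for Mau2), and Smc3 no longer did. The calls also moved when a library was left out, which leaves a single library in its group. The log2 change of Smc3 was -0.21 without pre-B mutant replicate 2. It was -0.26 without pro-B mutant replicate 1 and -0.32 without pro-B mutant replicate 2. Stag1 changed by -0.40 without pre-B mutant replicate 2 and by -0.46 without pro-B mutant replicate 2. Without pre-B mutant replicate 1, Rad21 changed by -0.46 and Smc1a by -0.76. Without pro-B mutant replicate 2, Nipbl changed by 0.31 and Mau2 by 0.42.

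Immature B cells held far less Rad21 RNA than pre-B cells. Rad21 stood at 131 and 129 TPM in the 2 Igh(+/+) immature libraries of the 890-inv block and at 144, 134 and 128 TPM in the 3 of the CBE block, against 360.0 and 349 TPM in Wapl(+/+) pre-B cells. The log2 change was -1.41 ± 0.079 (SE), adjusted p = 9.28e-06, the largest of the 10 genes in any comparison, and all 5 immature libraries lay below both pre-B libraries.

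Ring partners and Ctcf were lower too. Smc1a averaged 68.5 ± 7.56 TPM in immature B cells (SD, n = 5) and 133 ± 25.4 TPM in pre-B cells (SD, n = 2), with a log2 change of -0.94 ± 0.144 (SE), adjusted p = 0.00141. Ctcf averaged 141 ± 13.8 TPM in immature B cells and 246 ± 2.09 TPM in pre-B cells (log2 change -0.80 ± 0.108 (SE), adjusted p = 0.000698). Smc3 (-0.65), Stag1 (-0.61) and Stag2 (-0.45) fell by less. In all, 7 of the 10 genes fell, where 21.5% of all genes did, and the median log2 change of the 10 was -0.63 against -0.10 over all genes.

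The loader genes stood apart in how they spread between the blocks. Nipbl stood at 29.6 and 33.5 TPM in the 890-inv block and at 56.9, 50.3 and 50.7 TPM in the CBE block, against 76.3 and 85.4 TPM in pre-B cells (log2 change -0.90 ± 0.253 (SE), adjusted p = 0.0251). Mau2 stood at 46.7 and 47.7 TPM in the 890-inv block, below pre-B cells, and at 94.6, 80.6 and 80.9 TPM in the CBE block, which overlaps the pre-B values of 81.9 and 84.1 TPM. It did not pass with both blocks together (adjusted p = 0.460) and fell with the 890-inv block alone (log2 change -0.80, adjusted p = 0.000317). All 10 genes were lower with the 890-inv block alone and 8 with the CBE block alone. Over all genes tested, 4802 fell with the 890-inv block alone and 3091 with the CBE block alone, against 2580 of 12027 (21.5%) with both blocks together. More of all genes were thus lower in each fit of 1 block too, and their shares there are not given here. Leaving out a pre-B replicate leaves a single pre-B library. Without replicate 2 the calls of Nipbl, Stag1 and Stag2 did not hold, with log2 changes of -0.82, -0.46 and -0.30. Without replicate 1 that of Nipbl did not, with -0.98. The Rad21 call held under every alternative run (log2 change from -1.44 to -1.29). Stage and block cannot be told apart here, since no block holds both stages.

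Other genes moved over the same step. All 19 genes of replication and mitosis fell, with a median log2 change of -2.28, and Ccnb2, a mitotic cyclin, averaged 43.9 TPM in immature B cells and 321 TPM in pre-B cells. All 8 condensin genes fell, led by Ncapd2 at 66.9 TPM in immature B cells and 339 TPM in pre-B cells. Of 12 genes that release, acetylate or protect cohesin, 10 fell, among them Plk1, a mitotic kinase (log2 change -2.80), and Espl1, the protease that cuts Rad21 at anaphase (-2.50). Of 6 genes of the Smc5/6 complex, a relative with roles in DNA repair, 2 fell. The part of cell division in the lower cohesin genes was not tested. Immunoglobulin rows held 5.86% to 7.88% of TPM in these immature B libraries and 2.80% to 3.35% in the pre-B libraries, and a larger share for such rows lowers the TPM of all others.

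**Figure D1:**
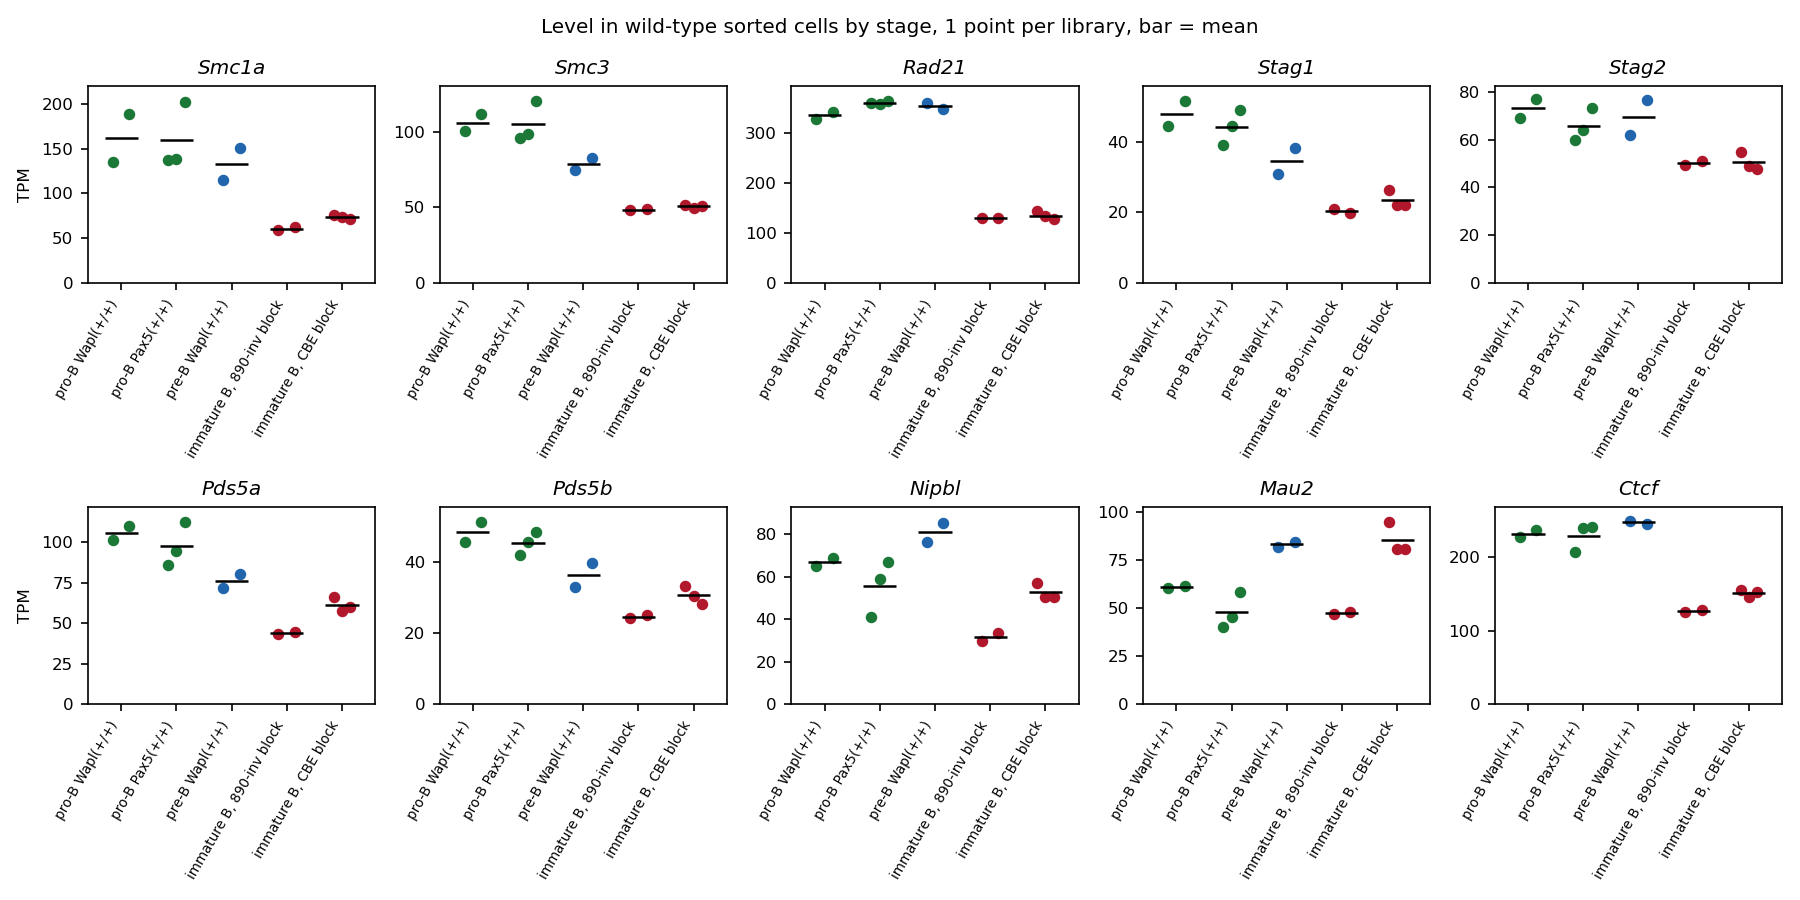
TPM of each gene (vertical axes, linear, from 0) in sorted wild-type cells by stage, with 1 point per library and a bar at the mean. Rad21 lies between 329.9 and 364 TPM in pro-B and pre-B libraries and between 128 and 144 TPM in immature B libraries, while Mau2 of the CBE block lies at the pre-B level.

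Pro-B cells expanded in culture were compared with sorted ones, both Wapl(+/+). Both loader genes and Ctcf were lower after culture, and ring genes were not shown to differ. Nipbl stood at 37.7 and 34.8 TPM in cultured cells, against 65.2 and 69.0 TPM in sorted cells (log2 change -0.87 ± 0.103 (SE), adjusted p = 0.000359). Ctcf stood at 156 and 155 TPM in cultured cells, against 227 and 236 TPM in sorted cells (log2 change -0.57 ± 0.086 (SE), adjusted p = 0.00122). In both genes the groups were far apart. Mau2 averaged 41.5 ± 4.35 TPM in cultured cells and 60.8 ± 0.628 TPM in sorted cells (SD, n = 2 each). Its log2 change of -0.54 ± 0.111 (SE), adjusted p = 0.00468 was lost on leaving out either sorted library, and against sorted Pax5(+/+) cells it was -0.19 (adjusted p = 0.398).

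Of the 10 genes, 3 fell in culture, near the 28.4% of all genes that fell. Rad21 averaged 332 ± 15.2 TPM in cultured cells and 336 ± 8.63 TPM in sorted cells, and the log2 changes of Smc1a, Stag1, Stag2 and Pds5b lay between -0.12 and 0.026. Among 10 other factors of loops and enhancers, 8 fell, among them the zinc finger proteins Maz, at 424 TPM in cultured cells and 973 TPM in sorted cells, and Yy1, at 93.2 and 202 TPM in the same order. In the cultured libraries 4 stroma markers, led by Col1a1, summed to 747 to 875 TPM, against 8.55 to 11.001 TPM in sorted ones, with none of the 4 at 0. All 8 pro-B markers fell, with a median log2 change of -1.12 and sums of 4185 to 5119 TPM in cultured and 9469 to 9645 TPM in sorted libraries. Of 7 myeloid markers 6 fell and 1 rose, with sums of 36.7 to 58.1 TPM in cultured libraries, 1 at 0 there, and 675 to 1199.5 TPM in sorted ones. Of 6 erythroid markers all 3 tested fell, with sums of 0.659 to 1.049 TPM in cultured libraries, 3 at 0 there, and 182 to 226 TPM in sorted ones. The part of these cells in the values was not tested. Culture and block cannot be told apart. Between sorted pro-B cells of different blocks, Wapl(+/+) against Pax5(+/+), none of the 10 passed, where 1.12% of all genes did, and none had an unadjusted p below 0.05, as 15.8% of all genes did. Neither of these blocks is that of the cultured cells. Between the Igh(+/+) immature B cells of the CBE and 890-inv blocks, Nipbl (means 52.6 and 31.6 TPM), Mau2 (85.4 and 47.2) and Ctcf (151 and 127) did not overlap. Rad21 and Stag2 overlapped there.

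In Pax5(-/-) progenitors 7 of the 10 genes were lower with all libraries in the fit. Nipbl, the loader's large subunit, stood at 24.3 and 19.2 TPM in Pax5(-/-) progenitors, against 41.1, 58.8 and 66.9 TPM in Pax5(+/+) pro-B cells (log2 change -1.30 ± 0.214 (SE), adjusted p = 0.00327). Its partner Mau2 stood at 41.2 and 36.1 TPM in Pax5(-/-) progenitors and at 40.3, 45.4 and 58.5 TPM in Pax5(+/+) cells, with overlapping groups (log2 change -0.29 ± 0.171 (SE), adjusted p = 0.215). Rad21 stood at 210.0 and 192 TPM in Pax5(-/-) progenitors, against 361, 359 and 364 TPM in Pax5(+/+) cells (log2 change -0.84 ± 0.090 (SE), adjusted p = 0.000442). The 3 Pax5(+/+) values of Rad21 were nearly equal and both Pax5(-/-) values were far below them.

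Both Stag genes, both Pds5 genes and Ctcf fell as well. Stag1 averaged 24.8 ± 3.91 TPM in Pax5(-/-) progenitors (SD, n = 2) and 44.3 ± 5.02 TPM in Pax5(+/+) cells (SD, n = 3), a log2 change of -0.81, and Stag2 changed by -0.58. Pds5b averaged 24.2 ± 3.80 TPM in Pax5(-/-) progenitors and 45.3 ± 3.35 TPM in Pax5(+/+) cells (log2 change -0.88 ± 0.141 (SE), adjusted p = 0.00286), and Pds5a changed by -0.64. Ctcf averaged 164 ± 7.15 TPM in Pax5(-/-) progenitors and 229 ± 19.6 TPM in Pax5(+/+) cells (log2 change -0.47 ± 0.106 (SE), adjusted p = 0.0122). The arms of the ring did not pass, Smc1a with a log2 change of -0.51 (adjusted p = 0.0609) and Smc3 with -0.32 (adjusted p = 0.104), although neither group overlapped its control.

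In all, 7 of the 10 genes fell, where 21.4% of all 12023 genes tested fell, and the median log2 change of the 10 was -0.61 against -0.11 over all genes. With Pax5(-/-) replicate 1 left out, 4 of the 10 passed, Rad21, Stag1, Nipbl and Pds5b, where 7.28% of all genes fell. With replicate 2 left out, Rad21 alone passed, where 5.84% fell. Direction was the same for all 10 genes in both cases, and the lone library was then assumed to vary like the other group.

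Among the genes around cohesin, Wapl, which releases the ring, rose to 33.8 TPM in Pax5(-/-) progenitors, against 8.98 TPM in Pax5(+/+) cells. Of the 12 genes of its list, 8 others fell, among them Esco2, which acetylates Smc3 in S phase, at 17.7 TPM in Pax5(-/-) progenitors and 48.1 TPM in Pax5(+/+) cells. All 8 condensin genes fell, and so did 12 of 19 genes of replication and mitosis, with Mki67 at 84.0 TPM in Pax5(-/-) progenitors and 229.7 TPM in Pax5(+/+) cells. Smc6 was the only one of 6 Smc5/6 genes to fall. The groups also differ in cell stage. The 8 pro-B markers summed to 3183 to 3710 TPM in Pax5(-/-) progenitors, against 6893 to 8910 TPM in Pax5(+/+) cells, with none at 0. T and innate lymphoid markers, 8 in number, summed to 81.7 to 88.2 TPM in Pax5(-/-) progenitors, with 1 at 0, against 26.9 to 53.5 TPM in Pax5(+/+) cells. The part of division, stage and other cells in the lower cohesin genes was not tested.

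In the libraries of the Eed comparison, Nipbl was the only one of the 10 genes to pass. It stood at 26.7, 32.7, 25.4, 23.4 and 20.3 TPM in the 5 libraries labelled Eed(F/F) Rag1-cre, against 70.7, 48.0 and 46.1 TPM in Eed(F/+) Rag1-cre and 55.6 TPM in Eed(F/F) without Cre (log2 change -0.93 ± 0.144 (SE), adjusted p = 0.00320, with the block as a term). Every mutant library lay below every control. By block, which adds no separate check, the values were 26.7 TPM against 55.6, 32.7 against 70.7 and 48.0, and 20.3 to 25.4 against 46.1. One gene of 10 is close to the 9.17% of all genes that fell.

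The other genes overlapped between the groups, with adjusted p from 0.0929 for Pds5b to 0.941 for Smc3. Control library Eed(F/+) Rag1-cre replicate 1 was low in Rad21, at 186 TPM against 348 and 445 TPM in its mates, and high in Mau2, at 109.97 TPM against 59.1 and 44.4 TPM. Without it 9 of the 10 genes fell, all but Smc3, with log2 changes from -0.87 to -0.20 over the 10, where 22.5% of all genes fell. Among them were Rad21 (log2 change -0.49, adjusted p = 0.000547) and Ctcf (-0.40, adjusted p = 0.00112). The call of Nipbl held under every alternative run (log2 change from -1.07 to -0.83). Mau2 was also called without Eed(F/+) Rag1-cre replicate 2 (-0.58, adjusted p = 0.0237), and in the other leave-outs Nipbl was the only call among the 10. Of 19 genes of replication and mitosis none passed with all libraries, and condensin likewise had none of 8, at adjusted p below 0.05 in limma. Without Eed(F/+) Rag1-cre replicate 1, 10 of the 19 fell and 2 rose, all 8 condensin genes fell, and 8 of 12 genes of release, acetylation and protection fell. Mki67 stood at 270.2, 356, 101, 92.7 and 102 TPM in the mutants, against 91.0, 514 and 196 TPM in Eed(F/+) Rag1-cre, with replicate 1 the lowest, and 380.5 TPM in Eed(F/F) without Cre. The part of cell division in the Eed values was not tested. Top2b, a topoisomerase found at loop anchors, averaged 66.7 TPM in mutants and 106 TPM in controls and was 1 of 2 of 10 other loop factors to fall, against 4 of 10 without that control. Immature B markers, 6 in number, summed to 343 to 911 TPM in the mutants, against 34.3 to 138 TPM in controls, with none at 0, and their part was not tested.

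**Figure D2:**
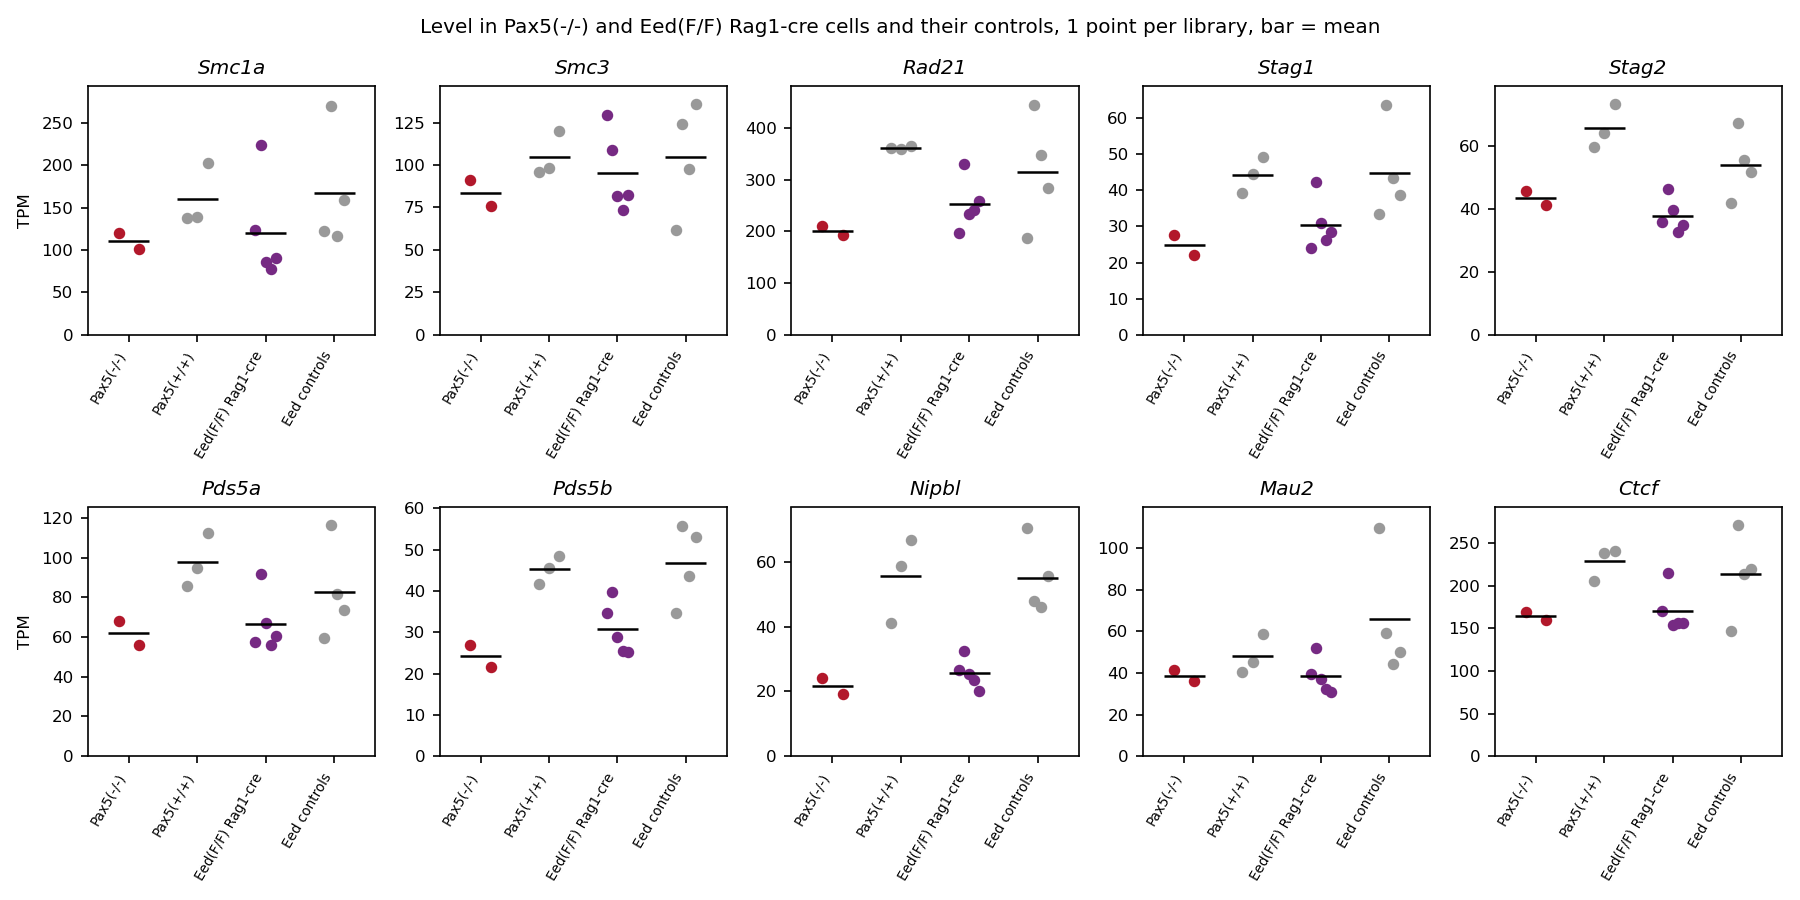
TPM of each gene (vertical axes, linear, from 0) in Pax5(-/-) progenitors and Pax5(+/+) pro-B cells, and in libraries labelled Eed(F/F) Rag1-cre and their controls, with 1 point per library and a bar at the mean. Nipbl is separated in both pairs, between 19.2 and 24.3 TPM in Pax5(-/-) and between 20.3 and 32.7 TPM in Eed(F/F) Rag1-cre libraries.

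Over all genes, the log2 changes differed with transcript length in these comparisons. Nipbl has the longest coding transcript of the 10 genes, 8815 bases. Rad21 has the shortest, 3604 bases. Among the other genes called in Pax5(-/-) progenitors, Pds5b (7417 bases), Stag1 (6186) and Stag2 (6171) were also over 6000 bases. The called genes Pds5a (4146), Ctcf (3782) and Rad21 were shorter. Among genes with a longest coding transcript over 6000 bases the median log2 change was -0.29 after loss of Pax5, against -0.097 among shorter ones, and -0.20 against -0.044 in the Eed comparison (-0.20 against -0.050 without Eed(F/+) Rag1-cre replicate 1). Lengths were known for 88.9% to 89.6% of the genes tested in these fits. The part of transcript length and RNA quality in the values of the 10 genes was not tested.

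Wapl was higher in Wapl(deltaP1,2/deltaP1,2) cells, and the next comparisons asked whether the rest of the machinery moved with it. In sorted pro-B cells, Smc3 was lower. It stood at 84.1 and 80.4 TPM in Wapl(deltaP1,2/deltaP1,2) cells, against 100.1 and 112 TPM in Wapl(+/+) cells (log2 change -0.36 ± 0.093 (SE), adjusted p = 0.0355), with no overlap. This was 1 gene of 10, where 9.63% of all genes fell, and it missed the threshold without the filter (adjusted p = 0.0505) and when any 1 of the 4 pro-B libraries was left out (adjusted p = 0.0769 to 0.198). Markers of other cells moved with the genotype. Of 6 immature B markers, 4 of 5 tested fell, with sums of 76.4 to 90.3 TPM in mutant and 188 to 190.1 TPM in wild-type libraries and none at 0. Of 6 erythroid markers, 2 of 3 tested rose, with sums of 321 to 497 TPM in mutant and 182 to 226 TPM in wild-type libraries and 2 at 0 in both. Of 4 stroma markers, 2 of 3 tested rose, with sums of 16.2 to 31.0 TPM in mutant and 8.55 to 11.001 TPM in wild-type libraries. Their part in the Smc3 value was not tested. Pds5a averaged 88.3 ± 1.68 TPM in mutant and 106 ± 5.97 TPM in wild-type cells, and Mau2 72.7 ± 11.1 and 60.8 ± 0.628 TPM in the same order, without overlap but with adjusted p = 0.149 and 0.151. Mau2 passed without mutant replicate 1 (log2 change 0.40, adjusted p = 0.0339). Rad21, Stag1, Stag2, Nipbl, Smc1a, Pds5b and Ctcf overlapped.

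In pre-B cells none of the 10 genes passed in limma, where 3.02% of all genes did, and 3 had an unadjusted p below 0.05, as did 15.7% of all genes. Rad21 stood at 308 and 238 TPM in Wapl(deltaP1,2/deltaP1,2) cells and at 360.0 and 349 TPM in Wapl(+/+) cells (log2 change -0.39 ± 0.115 (SE), adjusted p = 0.151). Both mutants lay below both controls, and without mutant replicate 1 Rad21 passed (-0.57, adjusted p = 0.0253). The test of the difference between the mutant effects in pre-B and pro-B cells passed for none of the 10, where 3.35% of all genes passed, and none had an unadjusted p below 0.05, as 17.8% of all genes did. Genes of replication and mitosis did not pass in either stage, 0 of 19 in each. Their median log2 change was -0.44 in pre-B cells, against -0.010 over all genes. In pro-B cells it was -0.073, against -0.011 over all genes. The 8 condensin genes had a median of -0.47 in pre-B cells, and none passed. The part of cell division in the pre-B values was not tested.

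The 3 cultured mutant libraries spread widely. Nipbl stood at 42.1, 22.1 and 20.8 TPM in Wapl(deltaP1,2/deltaP1,2) cells, against 37.7 and 34.8 TPM in Wapl(+/+) cells (log2 change -0.42 ± 0.278 (SE), adjusted p = 0.309). Replicate 1 lay above both controls and the other two mutants below them. Mau2 stood at 38.3, 24.5 and 28.4 TPM in mutant and 38.4 and 44.6 TPM in wild-type cells (log2 change -0.46 ± 0.194 (SE), adjusted p = 0.126), and all 3 mutants lay below both controls. None of the 10 passed in limma, where 21.7% of all genes did, and 1 had an unadjusted p below 0.05, as did 37.2% of all genes.

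Mki67 stood at 215, 73.5 and 67.7 TPM in the cultured mutants against 154 and 158 TPM in wild type. Replicate 1 had the highest value of the 3 mutants in all 10 genes, and how many of all genes did so was not counted. Its median gene deviated by 0.257 on the log2 scale from its group mates, against 0.121 and 0.160 in the other mutants. Without it Nipbl (log2 change -0.73, adjusted p = 0.00353), Mau2 (-0.63, adjusted p = 0.00974) and Smc1a (-0.43, adjusted p = 0.0112) fell, where 40.7% of all genes fell. With libraries scaled to a common median ratio, which moved the median of all genes from -0.18 to -0.011, Ctcf passed as higher (0.35, adjusted p = 0.0430). The 4 stroma markers summed to 401 to 535 TPM in cultured mutants and 747 to 875 TPM in cultured wild type, with none at 0, and their part was not tested. With all libraries, the median log2 change was -0.35 among genes with a longest coding transcript over 6000 bases, against -0.16 among shorter ones. The part of transcript length in the cultured values was not tested.

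Mau2 was below its control in cultured mutants and above it in sorted ones, without overlap in each, so the difference of the mutant effects was tested across both blocks, a test added after the values were seen. The effect in culture minus that in sorted pro-B cells was -0.70 ± 0.236 (SE) for Mau2 (adjusted p = 0.0527), and none of the 10 passed, where 22.3% of all genes did. Against pre-B cells it was -0.53 (adjusted p = 0.132), and again none passed, where 20.7% did. Without cultured replicate 1 Mau2 passed in both (-0.88, adjusted p = 0.00302, and -0.70, adjusted p = 0.00872) and so did Nipbl (-0.85, adjusted p = 0.00106, and -0.81, adjusted p = 0.00138), where 37.7% of all genes passed in each. That library had already been seen to stand apart in these genes, and no other library was left out of this test. These passes are therefore no separate check.

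Sex-linked genes differed between the Wapl groups and in the Eed comparison, and Smc1a and Stag2 lie on X. Eif2s3y, a Y-linked gene, was listed at 0 and 0 TPM in mutant pro-B libraries, against 5.75 and 17.1 TPM in wild type, and at 72.3, 71.4 and 0.194 TPM in cultured mutants, against 0.639 and 0.280 TPM in cultured wild type. Smc1a averaged 151 ± 5.60 TPM in mutant and 162 ± 37.4 TPM in wild-type pro-B cells, with overlap, as did Stag2, at 70.2 ± 2.82 and 73.1 ± 5.62 TPM in the same order. In culture, over the fits run, the log2 change of Smc1a lay between -0.43 and -0.018 and that of Stag2 between 0.025 and 0.36. In the Eed comparison 6 of 9 X and Y linked genes fell and none rose, where 9.17% of all genes fell. Without Eed(F/+) Rag1-cre replicate 1, where Smc1a and Stag2 were called lower, 6 of the 9 again fell, where 22.5% of all genes did. The part of sex in these comparisons was not tested.

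**Figure D3:**
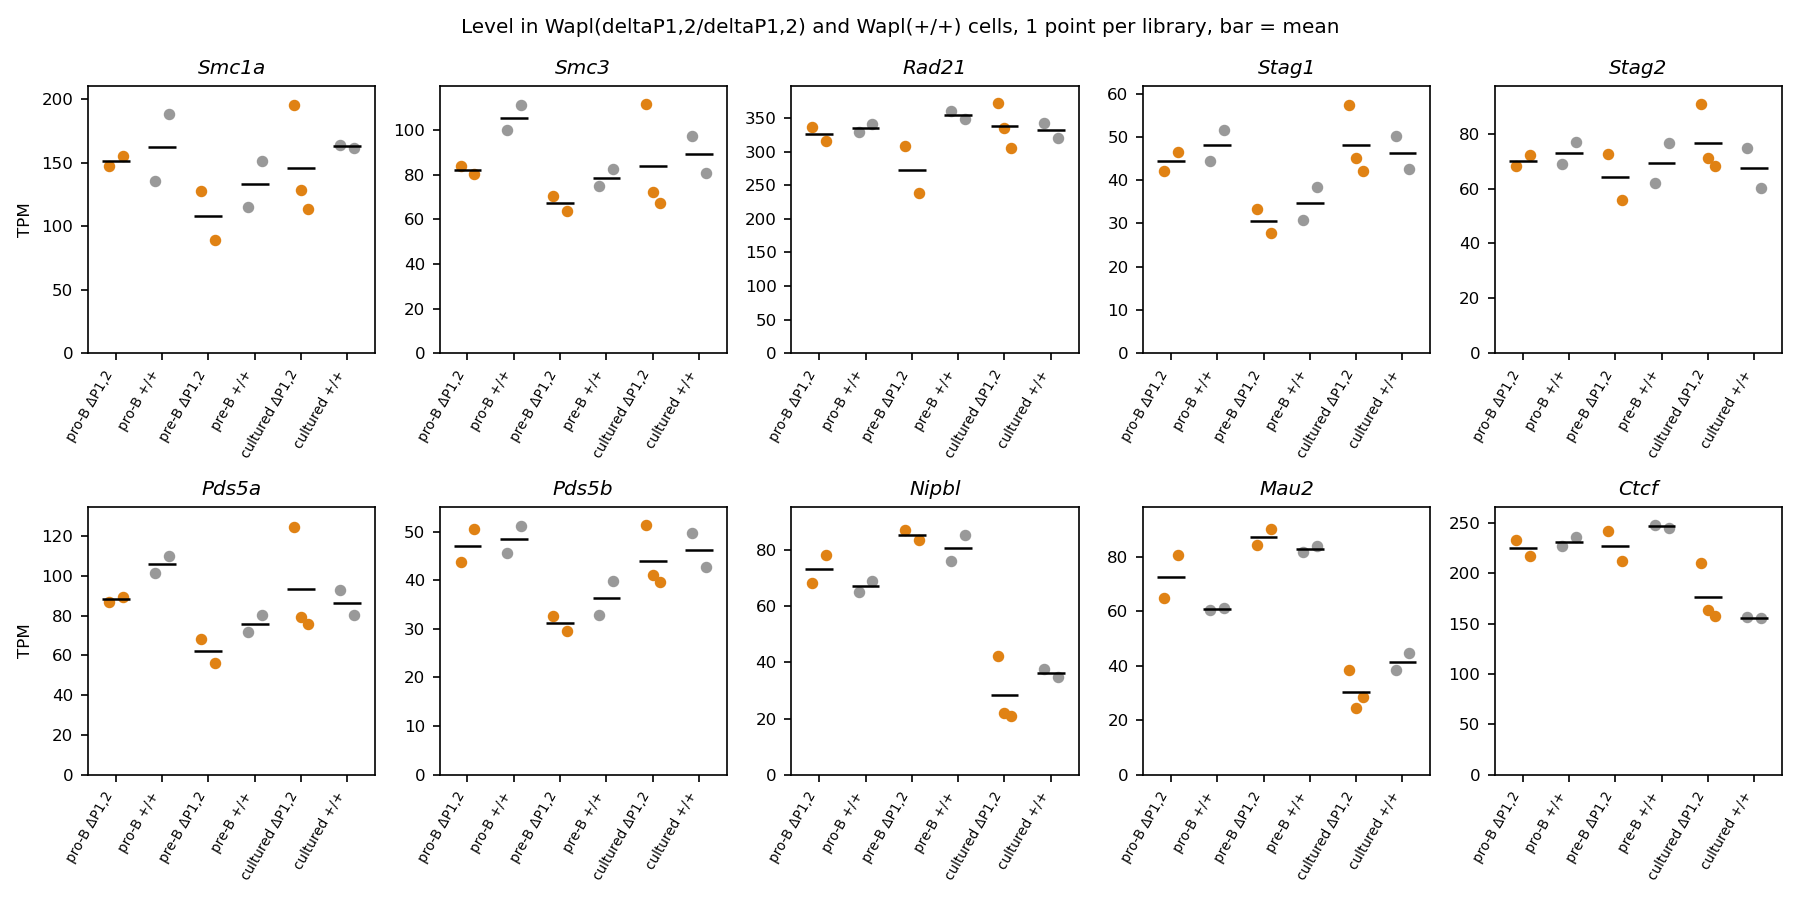
TPM of each gene (vertical axes, linear, from 0) in Wapl(deltaP1,2/deltaP1,2) and Wapl(+/+) cells, with 1 point per library and a bar at the mean. Cultured libraries of both genotypes lie below sorted ones for Nipbl, Mau2 and Ctcf, and 1 cultured mutant lies above the other two in each gene.

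Changes at Igh itself were not accompanied by called changes in these genes. In immature B cells with 890-inv, CBE, CBE-inv, V8-8 or V8-8-inv on 1 allele, none of the 10 passed in limma, where 0.544%, 0.00834%, 0.0834%, 0.235% and 0.219% of all genes did, in that order. At an unadjusted p below 0.05 there were 1, 1, 0, 0 and 0 of the 10, and 5.41%, 2.45%, 2.49%, 1.85% and 6.08% of all genes. The log2 changes reached at most 0.22 in size for 890-inv, 0.20 for CBE, 0.18 for CBE-inv, 0.26 for V8-8 and 0.35 for V8-8-inv. Ctcf averaged 119.6 ± 4.27 TPM in Igh(890-inv/+) cells and 127 ± 1.91 TPM in Igh(+/+) cells of that block (SD, n = 2 each). The Igh(+/+) libraries of that block held Wapl at 163 and 405 TPM, against 27.3 and 40.8 TPM in Igh(890-inv/+) cells, while the log2 changes of the 10 genes there lay between -0.22 and 0.046.

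The controls of the V8-8 block limited that comparison. Nipbl stood at 34.4 and 35.6 TPM in Igh(V8-8/delta890) and 30.0 and 27.4 TPM in Igh(V8-8-inv/delta890) cells, against 44.7 and 24.3 TPM in Igh(+/delta890) cells. Both control libraries lay outside both mutant ranges, 1 above and 1 below. Leaving out a control leaves a single control library, so only the size of the change is given. Without control replicate 1, Mau2 changed by 0.59 on the log2 scale in V8-8. Without control replicate 2, Nipbl, Mau2 and Ctcf changed by -0.63, -0.68 and -0.30 in V8-8-inv.

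**Figure D4:**
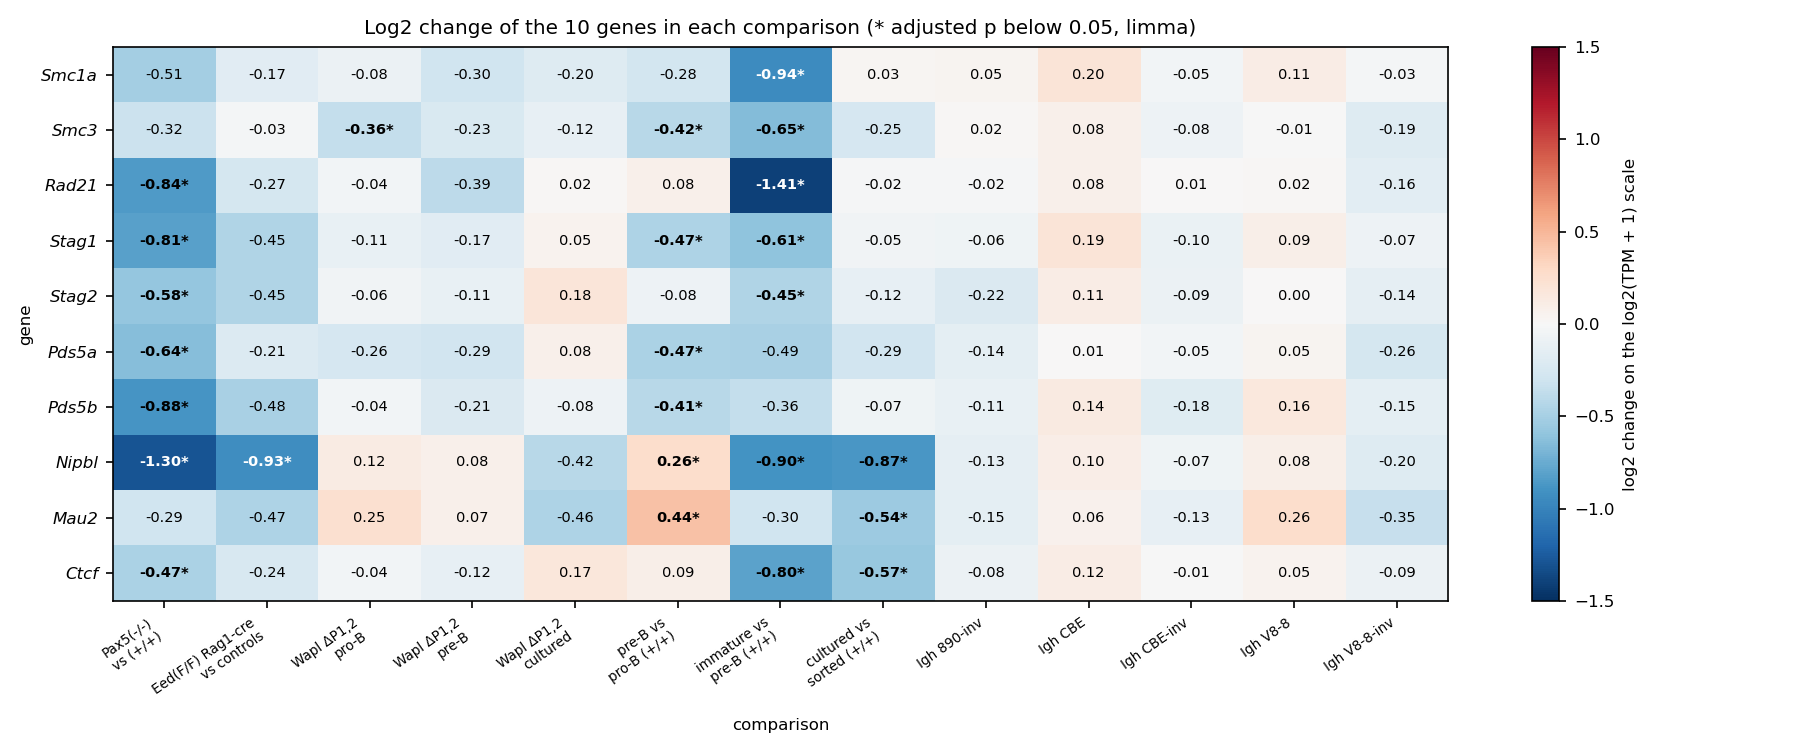
Log2 change of the 10 genes (rows) in 13 comparisons (columns), on the log2(TPM + 1) scale from blue (lower) to red (higher), with an asterisk and bold type where the adjusted p in limma was below 0.05. The Pax5 and immature B columns hold 7 called cells each, pre-B against pro-B 6, cultured against sorted 3, Eed and the pro-B Wapl column 1 each, and the 5 Igh columns none.

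Paired genes were then compared as ratios within a library, which do not depend on the library's total. The ratio of Stag2 to Stag1 TPM was 2.00 to 2.01 in Wapl(+/+) pre-B cells and 1.49 to 1.55 in Wapl(+/+) pro-B cells. In immature Igh(+/+) cells it was 2.08 to 2.56. The ratio of Nipbl to Mau2, added after the values were seen, was 0.589 and 0.532 in Pax5(-/-) progenitors and 1.02, 1.30 and 1.14 in Pax5(+/+) cells. Its log2 difference was -1.04, with a two-sided exact permutation p of 0.1, the smallest that 2 against 3 libraries allow. In immature B cells it was 0.60 to 0.70, against 0.93 to 1.01 in pre-B cells (exact permutation p = 0.0476, the smallest possible). The ratio of Pds5b to Pds5a was 0.38 to 0.39 in Pax5(-/-) progenitors and 0.43 to 0.49 in Pax5(+/+) cells (exact permutation p = 0.2). Of 45 ratio tests none passed after adjustment, the lowest adjusted p being 0.536, and most designs could not reach 0.05 before it.

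As a description over the 19 group means, which share libraries' depth and stage, the genes differed in the company they kept among 9901 genes. Smc1a was most like Ckap5 (Pearson r = 0.98), Nde1 and Ncapd3, and Rad21 most like Kif14 (r = 0.97), Dck and Ezh2. Smc3 was most like Cpsf4, Zfp326 and Tdp2, Stag1 like Slc38a2, Arl15 and Smc1a, and Stag2 like Cggbp1, Gzf1 and Pot1a. Pds5a was most like Med14, Taf5 and Otud4, and Pds5b like Zw10, Usp15 and Usp47. Ctcf was most like Top1, Myb and Apaf1, Nipbl like Gm20743, 2210018M11Rik and Bcl7a, and Mau2 like Ppp6r2 (r = 0.98), Neurl4 and Vps13d. Within the 10, Smc1a and Stag1 had r = 0.96, and Mau2 and Smc3 had r = -0.35, the lowest of all pairs.

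CTCF binding at the 10 genes was read from the authors' peak lists of pro-B cells cultured for 5 days (build mm9). There were 34754 and 29352 peaks in Igh(890-inv/890-inv) cells and 36687 and 36133 in wild-type cells, each list from 1 sample. Within the 10 genes and 10000 bases either side, 32 merged peak regions were found, of which 28 were in both wild-type lists. Of these 28, 23 were in both 890-inv lists, 3 in 1 and 2 in neither. Among all 32837 such regions outside chromosome 12, 83.6% were in both 890-inv lists, 12.2% in 1 and 4.11% in neither, so the regions at the 10 genes are near that share. They lay at 9 genes, with 14 in introns, 10 upstream, 3 downstream and 1 in a noncoding exon or UTR. Rad21, the most abundant of the 10 in most libraries, had no peak in this window in any list (chr15:51794151-51823306, minus strand).

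Of the 28 regions, 11 lay within 1000 bases of a transcript start. They belonged to 8 genes, all but Rad21 and Mau2. Among all 22202 protein-coding genes 18.2% had such a peak, and among 6612 with at least 20 TPM in cultured wild-type cells 28.6% had one. With 5000 bases, a window added after the values were seen, the count of the 10 stayed at 8, against 37.5% and 53.8%. Stag2, Pds5b and Pds5a had a peak centre 88, 44 and 96 bases before the gene's start, and the Ctcf gene had one 206 bases after it, in an intron.

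A 12-base core of the CTCF motif was searched, which reads CCA, any 2 bases, AG, any 2 bases and GGC. It was looked for on both strands in the 300 bases around each peak centre. It was present in 9 of the 28 regions (32.1%), in 45.8% to 46.8% of all peaks of a list and in 2.57% of 22202 promoter windows of the same length. Only 2 of the 11 regions near a start held it, at Smc3 and at a Stag1 start. No match says only that these letters are not in the window. The sites below were chosen because they show the start-proximal match at Smc3, the match in a Nipbl intron, and 4 sites at 3 genes that carry the same 12 letters. How many other peaks of the lists carry these 12 letters was not counted. Each is 30 bases, read 5′ to 3′ on the motif's strand from the mouse NCBIM37 (mm9) genome, with the motif in capitals.
Smc3, at -481 from the start, chr19:53674390-53674419, plus strand: ggctcggaaCCAGCAGGAGGCgctctgagc
Nipbl intron, chr15:8332383-8332412, plus strand: ctaagaacgCCACAAGAGGGCacactttca
Smc3 intron, chr19:53711233-53711262, minus strand: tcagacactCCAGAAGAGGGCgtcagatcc
Smc3 intron, chr19:53712733-53712762, minus strand: acctgtgtgCCAGAAGAGGGCatcatatcc
Mau2, downstream, chr8:72536854-72536883, plus strand: ctcttgaggCCAGAAGAGGGCatagggtca
Pds5a intron, chr5:66059109-66059138, minus strand: tcagacatgCCAGAAGAGGGCatcagatct

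All 6 sites lay in peaks of all 4 lists. The Smc3 site upstream of the start runs in the gene's own direction and both intron sites run against it. Nipbl and Mau2, which lie on the minus strand, each have their site on the plus strand. Binding was mapped in cultured cells and Ctcf RNA was lower there than in sorted cells, and whether these peaks hold in sorted cells was not tested.

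**Figure D5:**
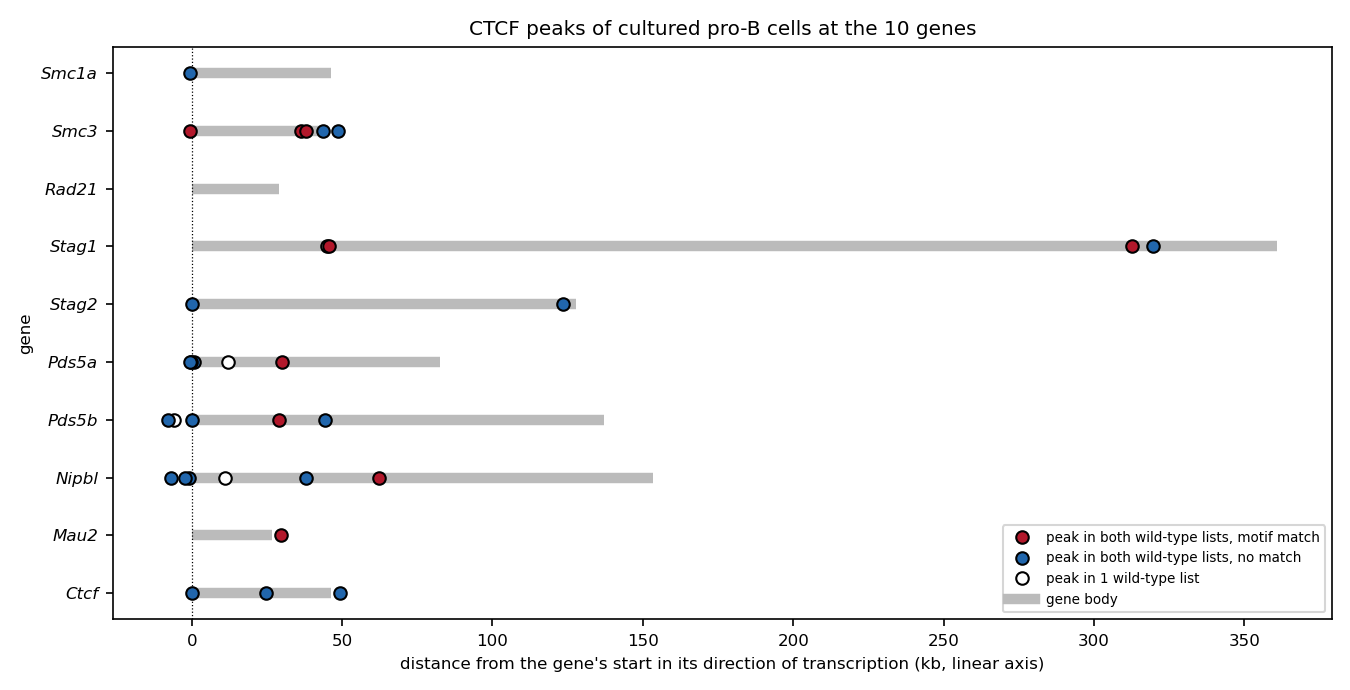
CTCF peaks at the 10 genes, placed by distance from the gene's start in its direction of transcription (horizontal axis, kb, linear), with a grey bar for the gene. Red points are peaks in both wild-type lists with the motif, blue points such peaks without it and white points peaks in 1 wild-type list, and Rad21 has no point.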

How the data were processed

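RNA-seq values were the authors' TPM as deposited, an abundance per transcript length scaled to a fixed total per library, 1 table per library. In 11 libraries the deposited signal stands under a library number, per the file headers, and was made by the authors with the same scaling to a fixed total, so it was read as TPM. Depth is unknown, since TPM keeps none. The submitters' processing notes name featureCounts 1.5.0, Bowtie2 2.1.0 and 2.2.9 and MACS2 2.0, and do not say which step each served. CTCF peak lists were deposited by the authors, 1 per sample (build mm9).

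From these, log2(TPM + 1) was fitted with limma 3.58.1 (R 4.3.3) within a block, with a trended prior, over genes with at least 1 TPM in as many libraries as the smaller group has, and p-values were adjusted by Benjamini-Hochberg over all genes tested (threshold 0.05). The Eed fit has the block as a term. TPM fold changes on this scale understate low genes. Single ratios were tested by exact permutation over libraries. The fit was tested on simulated data.

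Named genes are the 10 genes, the targeted genes, at most the 2 called genes of largest change per list, and the 3 most alike of each gene. Members, lists and tests were chosen with earlier results of these data known. Alternatives were another pseudocount (0.1), no filter, median-ratio scaling, other control sets and each library left out. The other assays of the series were not used here.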

Additional observations from a re-analysis of the deposited data

Results flagged for a closer look

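Ctcf in the libraries labelled Eed(F/F) Rag1-cre had 1 library far from the rest, replicate 2 at 215 TPM, where the other 4 lay between 154 and 170.3 TPM. Of 20 group values tested in this way 1 stood out, and chance gives about 1 in 20.

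In 3 cases every mutant library lay on 1 side of its controls in cultured Wapl(deltaP1,2/deltaP1,2) cells and on the other side in sorted ones. These came from 10 genes in 3 pairs of cell kinds. Among all genes in both fits 15.95% lay so between cultured and pro-B cells, where 1 of the 10 did, and 15.2% between cultured and pre-B cells, where 2 did. Between pre-B and pro-B cells it was 6.99%, where none of the 10 did. For Mau2 the mutant effect in cultured cells differed from that in pro-B cells by -0.70 (adjusted p = 0.0527) and from that in pre-B cells by -0.53 (adjusted p = 0.132), on the log2 scale. For Ctcf the effect differed from that in pre-B cells by 0.29 (adjusted p = 0.254). None of the 3 differences passed in limma with all libraries, and both of Mau2 passed without cultured mutant replicate 1. That library was left out after it was seen to stand apart in these genes, and no other was left out of this test.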

How the results depend on the processing

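No paired analysis was possible because the labels carry no replicate numbers, and those used here only name libraries. Of the 160 values of the 10 genes, a pseudocount of 0.1 left 160 with their direction and side of the threshold, and leaving out the filter left 158, with 2 calls lost. Median-ratio scaling left 140, gained 5 calls, lost 1 and turned the sign of 14 values that passed in neither. No called value turned its sign under any alternative run. Counts of genes called moved in 5 cases: to 246 from 376 for the pre-B Wapl comparison with the 2 groups alone, to 1467 from 2691 for Eed with only Eed(F/+) Rag1-cre controls, to 9 from 1 for CBE without the filter, to 6736 from 4310 for immature against pre-B cells with the 890-inv block alone, and to 22 from 134 between pro-B blocks with a pseudocount of 0.1. The causes were not tested.

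With 1 library left out, 656 of 810 values of the 10 genes kept their direction and side of the threshold, 33 calls were lost, 24 were gained and 97 values that passed in neither turned their sign. The counts of genes called ranged from 836 to 1550 for the Wapl comparison in pro-B cells (2153 with all), 180 to 456 in pre-B cells, 90 to 313 for their difference (418) and 460 to 5985 in culture (2703). They ranged from 1379 to 5074 for Pax5 (4441), 1197 to 5154 for Eed (2691), 2477 to 4417 for immature against pre-B cells (4310) and 4841 to 6546 for cultured against sorted cells (7899). For the Igh alleles they were 0 to 20 for 890-inv (62), 0 to 0 for CBE (1), 7 to 11 for CBE-inv (10), 21 to 411 for V8-8 (28) and 20 to 1425 for V8-8-inv (26), and between blocks 0 to 116 (134). Scaling moved the share of calls that were higher to 37.4% from 14.6% in cultured mutants, to 72.1% from 57.9% for Eed and to 52.4% from 40.1% for immature B cells. Depth is unknown, and groups of 2 to 5 libraries limit precision.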
